A study of Homo sapiens with 6 samples.

Results

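The genes described here build, transfer and trim the N-glycans of secreted and membrane proteins. They were taken as 39 named genes, and the probe sets of the array that the platform's gene table assigns to 1 of these symbols and to no other stood for them. Of the 39 genes, 36 had such a probe set, with 100 probe sets in all, out of 18132 genes and 49293 probe sets other than controls. PMM2 had no probe set under its symbol, ALG11 had 2 and ALG10 had 3 that the table also assigns to another gene, so these 3 genes were given no value. The cells were HCT116, an established colorectal cancer line of human origin. They had been transduced for 72 h with a lentivirus carrying a short hairpin RNA against PNO1 (sh-PNO1, 3 samples) or a control hairpin (sh-Ctrl, 3 samples), and RNA was read on 6 Affymetrix arrays. PNO1 is a factor of small ribosomal subunit assembly. All 6 samples are of the same line and were transduced, so neither group is untreated. The labels name no hairpin sequence and leave unsaid whether each replicate was its own culture, so the p-values rest on array-to-array spread that may be purely technical.

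An N-glycan is first built as a lipid-linked precursor. Phosphomannomutase (PMM2) and GMPPB supply GDP-mannose, dolichol kinase (DOLK) supplies the phosphorylated lipid, and a chain of ALG enzymes adds sugars on the cytosolic face and then in the lumen of the endoplasmic reticulum (ER). The oligosaccharyltransferase then transfers the whole sugar to asparagines of new proteins. Glucosidases and mannosidases trim it while UGGT enzymes put glucose back on unfolded proteins, and in the Golgi mannosidases and the MGAT enzymes start complex glycans. Accordingly the members were grouped as precursor (21 genes, 18 measured), transfer (9 genes) and trimming with the early Golgi steps (9 genes).

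Before the members, the arrays themselves were compared. The brightest PNO1 probe set had intensities of 105, 108 and 105 in sh-PNO1, against 535, 535 and 532 in sh-Ctrl. It thus kept 19.8% of the control signal (log2 difference −2.33 ± 0.04 SE, limma adjusted p = 1.89e-07), and an exact two-sided permutation test gave p = 0.1, which is the floor for groups of 3. The median intensity of an array lay between 25.6 and 25.9. The difference between the 3' and 5' probe sets of ACTB, a sign of RNA quality, was 2.25 on the log2 scale for sh-PNO1 replicate 2 and 1.73 to 1.87 on the other 5 arrays; every member was also tested without that array. The same difference for GAPDH separated the groups, with −0.056, −0.077 and −0.058 in sh-PNO1, against −0.028, −0.024 and −0.013 in sh-Ctrl; its part in the results was not tested. Of the epithelial markers, EPCAM averaged 1908 ± 83.1 in sh-PNO1 and 1998 ± 106 in sh-Ctrl, and KRT18, a simple epithelial keratin, 2412 ± 64.9 in sh-PNO1 and 2469 ± 48.4 in sh-Ctrl (SD, n = 3 each). Of 9 epithelial markers measured, 2 rose, against 20.0% of all genes, and none passed as lower. These were CDH1, the E-cadherin gene, with 287 ± 6.35 in sh-PNO1 and 232 ± 10.1 in sh-Ctrl (SD, n = 3 each; log2 0.31, limma adjusted p = 0.00137), and the keratin gene KRT19, with 3000.4 ± 75.4 in sh-PNO1 and 2329 ± 54.7 in sh-Ctrl (SD, n = 3 each; log2 0.37, limma adjusted p = 0.000318). VIL1, a microvillus protein, was dim (4.38 ± 0.34 in sh-PNO1 and 4.88 ± 0.36 in sh-Ctrl). None of 7 markers of blood, endothelial, fibroblast and liver cells passed, and PTPRC, the leukocyte marker CD45, stood at 3.65 ± 0.17 in sh-PNO1 and 3.79 ± 0.35 in sh-Ctrl. On these bulk samples, less transcript per cell and fewer cells that carry it cannot be told apart.

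The enzymes and subunits of N-glycosylation fell more often than they rose in sh-PNO1. Of the 36 members measured, 17 fell, 5 rose and 14 did not pass a limma adjusted p under 0.05 over all 18132 genes. Over all genes tested 14.2% fell, 20.0% rose and 34.1% passed in either direction. The median log2 difference of the members was −0.11, against 0.025 for all genes, and single members ranged from −1.14 (MPDU1) to 1.36 (ALG5). The groups did not overlap in 19 members with lower and 8 with higher values in sh-PNO1, against 18.4% and 26.3% of all genes. Dim genes pass less often, and when the dimmest 30% of genes were left out, 17 of 34 members fell and 6 rose, while 20.6% of all genes kept fell and 29.4% rose. When arrays were scaled to equal means of housekeeping genes, 14 members fell and 7 rose (2085 and 4566 of all genes), and when they were scaled to equal medians, 19 fell and 5 rose (3141 and 2856 of all genes).

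Only 4 members both passed and moved by at least 0.5 on the log2 scale, as 6.88% of all genes did: ALG5 and GANAB rose, and MPDU1 and RPN1 fell. For 3 of them, ALG5, MPDU1 and RPN1, the change was at least 2-fold, against 1.05% of all genes. Each of the 4 held under all 18 alternative settings tried. The log2 difference was 1.30 to 1.41 for ALG5, 0.50 to 0.63 for GANAB, −1.43 to −1.04 for MPDU1 and −1.40 to −1.04 for RPN1. ALG5 has only 1 probe set, so the settings that change the probe set could not alter its value.

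**Figure D1:**
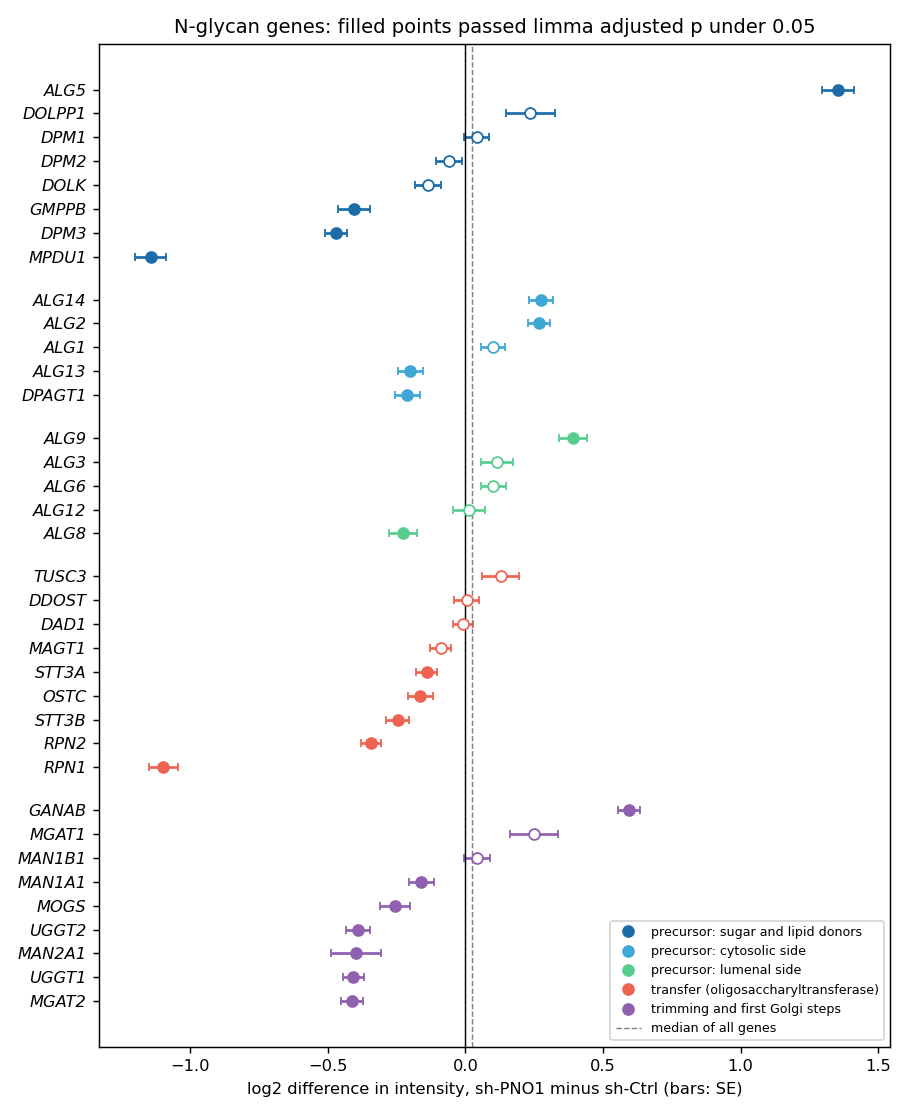
Log2 difference in intensity, sh-PNO1 minus sh-Ctrl, of the 36 measured members, ordered within each step; bars are the SE of the limma fit (3 arrays a group), filled points passed an adjusted p under 0.05, and the dashed line is the median of all genes (0.025). ALG5 (1.36) and MPDU1 (−1.14) lie at opposite ends of the same donor group. None of the 9 transfer genes passed as higher, against 20.0% of all genes.

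The stretches before the start sites of a few members show what lies upstream of genes that moved together and of genes that moved apart. ER stress factors bind a short core, ACGTGG, and a longer ER stress response element (ERSE), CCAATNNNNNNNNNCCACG. Both were searched on both strands of the 250 bases before each RefSeq start (build GRCh38.p14); the end of the ERSE can share letters with a core. Windows were found for 34 of the 39 genes and not for ALG10, STT3B, RPN1, TUSC3 and MOGS. Shown are the largest fall with a window (MPDU1), another donor gene that fell (DPM3), a folding sensor that fell (UGGT2), the 2 largest increases (GANAB and ALG5) and the member with an ERSE (ALG12). The core is in capitals in the first 4, the fixed letters of the ERSE are in capitals in ALG12, and ALG5 has neither in this window. The falling genes shown, MPDU1, DPM3 and UGGT2, all carry the core, but only 5 of the 14 members with a window that fell carried it. UGGT1, the other folding sensor that fell, did not.
MPDU1: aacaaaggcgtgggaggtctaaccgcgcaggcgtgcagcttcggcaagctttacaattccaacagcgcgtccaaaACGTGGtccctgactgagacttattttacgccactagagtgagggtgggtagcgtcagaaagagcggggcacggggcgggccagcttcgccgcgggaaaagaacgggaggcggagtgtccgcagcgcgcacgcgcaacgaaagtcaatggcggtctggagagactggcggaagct
DPM3: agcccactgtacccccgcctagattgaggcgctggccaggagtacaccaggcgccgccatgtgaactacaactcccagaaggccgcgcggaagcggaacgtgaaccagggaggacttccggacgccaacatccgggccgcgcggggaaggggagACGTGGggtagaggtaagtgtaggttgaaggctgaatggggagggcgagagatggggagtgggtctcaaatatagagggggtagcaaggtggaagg
UGGT2: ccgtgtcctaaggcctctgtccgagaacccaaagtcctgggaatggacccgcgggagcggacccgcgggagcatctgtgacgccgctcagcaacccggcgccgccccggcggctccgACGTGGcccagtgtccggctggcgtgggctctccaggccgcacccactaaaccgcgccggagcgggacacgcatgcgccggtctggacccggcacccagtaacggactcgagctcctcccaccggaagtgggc
GANAB: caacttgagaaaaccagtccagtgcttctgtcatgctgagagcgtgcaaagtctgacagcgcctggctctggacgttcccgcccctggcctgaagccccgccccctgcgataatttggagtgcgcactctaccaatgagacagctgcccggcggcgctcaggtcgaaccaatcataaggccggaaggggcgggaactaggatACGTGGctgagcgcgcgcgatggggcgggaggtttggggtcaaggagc
ALG5: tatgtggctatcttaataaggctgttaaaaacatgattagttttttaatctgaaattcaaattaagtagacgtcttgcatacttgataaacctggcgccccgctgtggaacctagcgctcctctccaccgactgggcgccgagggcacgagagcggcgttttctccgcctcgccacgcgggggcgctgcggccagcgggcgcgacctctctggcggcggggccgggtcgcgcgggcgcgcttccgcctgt
ALG12: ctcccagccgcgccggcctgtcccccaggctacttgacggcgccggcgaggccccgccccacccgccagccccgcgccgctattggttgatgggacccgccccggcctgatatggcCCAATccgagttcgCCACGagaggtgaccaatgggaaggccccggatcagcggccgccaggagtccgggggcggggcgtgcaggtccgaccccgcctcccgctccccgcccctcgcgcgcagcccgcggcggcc

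These windows lie at chr17:7583602-7583851 on the plus strand for MPDU1 and, on the minus strand, at chr1:155140408-155140657 for DPM3, chr13:96053402-96053651 for UGGT2, chr11:62646614-62646863 for GANAB, chr13:36999341-36999590 for ALG5 and chr22:49918439-49918688 for ALG12. Each is printed 5′ to 3′ along its gene and ends at the base before the start. The core begins 175 bases before the start of MPDU1, 96 before DPM3, 133 before UGGT2 and 48 before GANAB, and the ERSE begins 134 bases before ALG12. MPDU1 and DPM3 have 2 starts each, of which 1 carries the core, and ALG5 has 2 without it. In all, 9 of 34 members carried the core before at least 1 start (26.5%), against 10.1% of 27305 genes and 8.37% of 35116 windows. Of these 9, GMPPB, DPM3, MPDU1, OSTC and UGGT2 fell, GANAB rose, and DOLK, ALG3 and MGAT1 did not pass; over the 32 measured members with a window 14 fell and 5 rose. The full ERSE stood before ALG12 alone, which did not pass, and before 0.0916% of all genes. Among 20 genes of ER chaperones and the unfolded protein response, 7 carried the core and 5 the ERSE. A match is a run of letters, and binding was not measured.

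Members of the precursor steps were found in both directions. Of 18 measured, 6 fell (33.3%, against 14.2% of all genes) and 4 rose (22.2%, near the 20.0% of all genes), with a median log2 difference of 0.027, against 0.025 for all genes. The largest differences lay among the donors of activated sugars and lipid, where 3 of 8 fell and 1 rose. The median of the precursor step changed sign with small shifts, to −0.012 with arrays at equal medians.

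ALG5, which makes the glucose donor dolichol-phosphate-glucose, had intensities of 689, 714 and 681 in sh-PNO1, against 270.3, 293 and 253 in sh-Ctrl. All sh-PNO1 arrays stood far above all sh-Ctrl arrays, a 2.56-fold difference (log2 1.36 ± 0.06 SE, limma adjusted p = 3.74e-06). The gene has only 1 probe set, so no other probe set could be set beside it. MPDU1, an ER membrane protein needed for the use of dolichol-linked mannose and glucose, went the other way, with 101, 116 and 109 in sh-PNO1, against 241, 240.1 and 237 in sh-Ctrl. The groups did not overlap, and 45.2% of the control signal remained (log2 −1.14 ± 0.06 SE, limma adjusted p = 6.30e-06). Of its 6 probe sets 5 fell, by 1.14 to 1.43 on the log2 scale, and the dimmest stood at 0.11 with intensities of 12.8 in sh-PNO1 and 11.9 in sh-Ctrl.

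Dolichol-phosphate-mannose synthase, the source of the lumenal mannose, has a catalytic subunit, DPM1, and the small partners DPM2 and DPM3. DPM3, which holds the enzyme in the membrane, averaged 191 ± 3.63 in sh-PNO1 and 264 ± 5.98 in sh-Ctrl (SD, n = 3 each; log2 −0.47 ± 0.04 SE, limma adjusted p = 7.79e-05). DPM1 stood at 0.041 (adjusted p = 0.538) and DPM2 at −0.060 (adjusted p = 0.362), and for both the groups overlapped. GMPPB, which makes GDP-mannose, averaged 60.3 ± 4.47 in sh-PNO1 and 79.7 ± 1.75 in sh-Ctrl (SD, n = 3 each; log2 −0.40 ± 0.06 SE, limma adjusted p = 0.00112). DPM1, DPM2, DPM3 and GMPPB have 1 probe set each. DOLK stood at −0.14 (adjusted p = 0.0569) and DOLPP1, which recycles the lipid, at 0.24 (adjusted p = 0.0789). DOLK passed under 5 of the 18 alternative settings and DOLPP1 under 5, in the same directions.

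On the cytosolic face 2 of 5 genes fell and 2 rose (40% each, against 14.2% and 20.0% of all genes), all by less than 0.3. ALG14, the membrane anchor of the enzyme that adds the second N-acetylglucosamine, had 135, 139.7 and 133 in sh-PNO1, against 109.6, 111 and 117 in sh-Ctrl (log2 0.27 ± 0.04 SE, limma adjusted p = 0.00179). Its catalytic partner ALG13 fell by 0.20 (adjusted p = 0.0097; 3 of 5 probe sets lower), so the pair moved in opposite directions, each with groups that did not overlap. ALG2, a mannosyltransferase, had 402, 405 and 419.7 in sh-PNO1, against 348, 339.6 and 333 in sh-Ctrl (log2 0.27 ± 0.04 SE, limma adjusted p = 0.00142). Its other 2 probe sets stood at −0.034 and −0.0044. DPAGT1, which starts the chain, fell by 0.21 on its brightest probe set (limma adjusted p = 0.00815), with 2 of 4 probe sets lower and the others at 0.077 and 0.15. ALG1, the mannosyltransferase that acts before ALG2, stood at 0.10 (adjusted p = 0.121). Neither DPAGT1 (0.15) nor ALG2 (−0.034) kept its direction once probe sets of suffix _x_at or _s_at, which may bind related transcripts, were left out.

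In the lumen 1 of 5 genes rose and 1 fell (20% each, against 20.0% and 14.2% of all genes), and 3 did not pass. ALG9, a mannosyltransferase, had 102, 108 and 112 in sh-PNO1, against 84.7, 80.3 and 80.1 in sh-Ctrl. All sh-PNO1 arrays were higher (log2 0.39 ± 0.05 SE, limma adjusted p = 0.000589), with 3 of 5 probe sets higher and none lower. ALG8, a glucosyltransferase, had 131, 134 and 134 in sh-PNO1, against 153, 166 and 148 in sh-Ctrl (log2 −0.23 ± 0.05 SE, limma adjusted p = 0.0108). The other enzymes stood at 0.12 (ALG3, which starts the lumenal mannoses), 0.10 (ALG6, which adds a glucose before ALG8) and 0.014 (ALG12, a mannosyltransferase), with adjusted p-values of 0.170, 0.132 and 0.884 in limma.

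**Figure D2:**
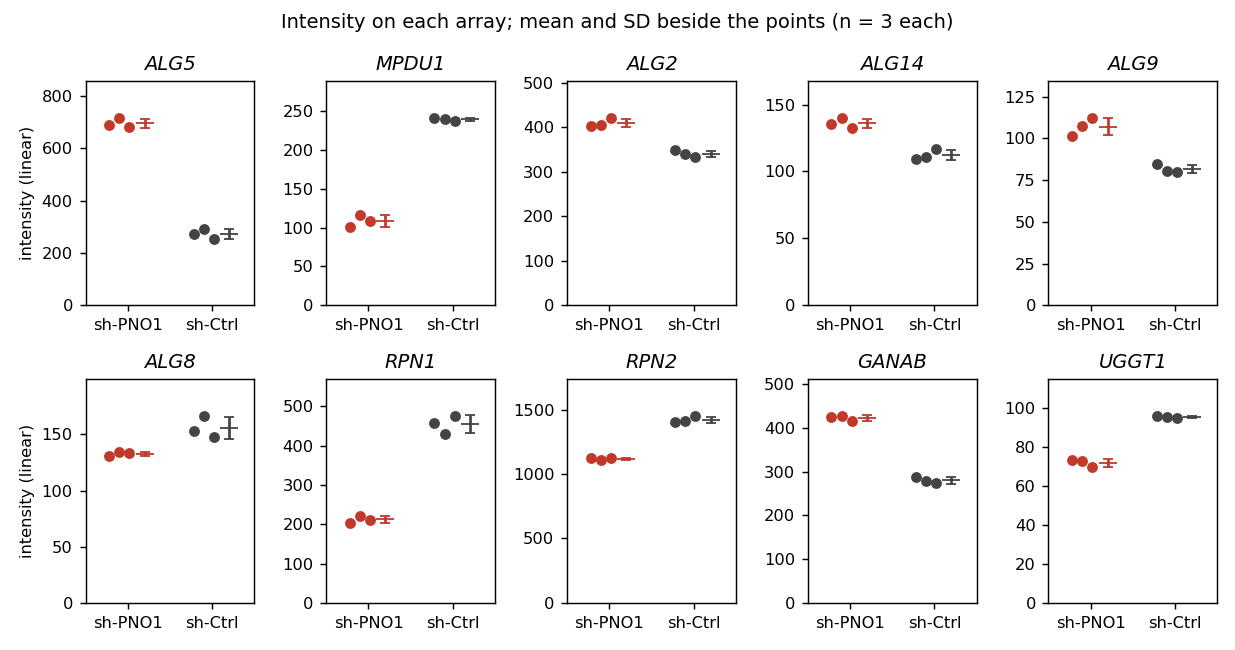
Linear intensity on each of the 6 arrays for the 4 members that moved by at least 0.5 and the members with the smallest adjusted p in each subgroup; sh-PNO1 is left of sh-Ctrl, and the bar beside the points is the mean with its SD (n = 3 each). In all 10 panels the groups do not overlap, which follows largely from choosing members by size and adjusted p. Over all genes the groups did not overlap in 26.3% with higher and 18.4% with lower values in sh-PNO1.

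In the transfer step every gene that passed was lower in sh-PNO1. Of the 9 subunits of the oligosaccharyltransferase 5 fell at an adjusted p under 0.05 in limma (55.6%, against 14.2% of all genes). None rose, against 20.0% of all genes, and no transfer gene above 0 had an unadjusted limma p under 0.05. The other 4 did not pass. The median log2 difference was −0.14, against 0.025 for all genes. RPN1, a subunit shared by both forms of the enzyme, had 204, 222 and 211 in sh-PNO1, against 458, 431 and 475 in sh-Ctrl. The groups lay far apart, and 46.7% of the control signal remained (log2 −1.10 ± 0.05 SE, limma adjusted p = 6.51e-06). All 4 RPN1 probe sets fell, by 1.10 to 1.40 on the log2 scale. RPN2, another shared subunit, had 1123, 1111 and 1123 in sh-PNO1, against 1406, 1407 and 1449 in sh-Ctrl (log2 −0.34 ± 0.04 SE, limma adjusted p = 0.000262). Of its 2 probe sets 1 passed as lower, and the other, far dimmer, stood at −0.14.

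The shared subunits DDOST and DAD1 did not pass. DDOST averaged 1304.5 ± 53.5 in sh-PNO1 and 1300.5 ± 17.7 in sh-Ctrl, and DAD1 averaged 1569.9 ± 7.63 in sh-PNO1 and 1580.4 ± 6.73 in sh-Ctrl (SD, n = 3 each), with log2 differences of 0.0037 and −0.0096. None of the 3 probe sets of DDOST or the 4 of DAD1 passed. Of the catalytic subunits, STT3B, which also acts after translation, changed by −0.25 ± 0.04 SE (limma adjusted p = 0.003; 5 of 7 probe sets lower), a call lost without _x_at and _s_at probe sets (−0.12, adjusted p = 0.123), and STT3A, which acts at the translocon, by −0.14 ± 0.04 SE (adjusted p = 0.0256).

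Among the accessory subunits, OSTC of the STT3A form changed by −0.16 ± 0.05 SE (limma adjusted p = 0.0277), MAGT1 of the STT3B form stood at −0.090 (adjusted p = 0.114), and TUSC3, the alternative to MAGT1, at 0.13 (adjusted p = 0.190). TUSC3 had intensities of 6.63 to 8.36 on the 6 arrays, and its other probe set was dimmer still. The calls of STT3A and OSTC depended on single arrays: STT3A did not pass without sh-PNO1 replicate 2 or without any 1 of the sh-Ctrl arrays (adjusted p up to 0.0731), nor OSTC without sh-PNO1 replicate 2 or 3 or sh-Ctrl replicate 2 or 3 (up to 0.0909). The count of transfer genes that fell was therefore 3 without sh-PNO1 replicate 2, sh-Ctrl replicate 2 or sh-Ctrl replicate 3.

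In trimming and the early Golgi steps 6 of 9 genes fell (66.7%, against 14.2% of all genes) and 1 rose (11.1%, against 20.0%). The median log2 difference was −0.26. The gene that rose was GANAB, the catalytic subunit of glucosidase II, which removes the inner glucoses. It had 426, 427 and 415 in sh-PNO1, against 289, 278 and 273 in sh-Ctrl, a 1.51-fold difference with no overlap (log2 0.59 ± 0.04 SE, limma adjusted p = 2.80e-05). All 5 GANAB probe sets rose, by 0.36 to 0.62. MOGS, glucosidase I, which acts before it, fell by 0.26 on its brightest probe set (limma adjusted p = 0.00898; 1 of 2 probe sets lower), and did not pass without _x_at and _s_at probe sets (−0.19, adjusted p = 0.160).

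UGGT1 and UGGT2, the folding sensors that add glucose back, fell on the probe sets that represented them. UGGT1 had 73.2, 72.6 and 69.5 in sh-PNO1, against 95.6, 95.1 and 94.6 in sh-Ctrl (log2 −0.41 ± 0.04 SE, limma adjusted p = 0.000153). Its other 2 probe sets stood at −0.092 and −0.096 and did not pass, and without probe sets of suffix _x_at or _s_at UGGT1 did not pass (−0.092, adjusted p = 0.188). UGGT2 averaged 72.9 ± 2.17 in sh-PNO1 and 95.6 ± 3.22 in sh-Ctrl (SD, n = 3 each; log2 −0.39 ± 0.04 SE, limma adjusted p = 0.000341), and 4 of its 5 probe sets fell. The largest fall, −0.90, was on a dim probe set (16.4 in sh-PNO1 and 30.5 in sh-Ctrl). The falls of −0.72 and −0.76 were on dim probe sets too, at 15.7 and 14.7 in sh-PNO1.

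In the Golgi, MGAT2, which starts the second antenna, averaged 189 ± 2.36 in sh-PNO1 and 252 ± 8.01 in sh-Ctrl (SD, n = 3 each; log2 −0.41 ± 0.04 SE, limma adjusted p = 0.000175; 2 of 4 probe sets lower). MAN2A1, the mannosidase that acts before it, changed by −0.40 ± 0.09 SE (limma adjusted p = 0.011) on a dim probe set, 10.5 ± 1.33 in sh-PNO1 and 13.7 ± 0.64 in sh-Ctrl. MAN1A1, a Golgi mannosidase, changed by −0.16 (adjusted p = 0.0274), a call lost without any 1 array except sh-PNO1 replicate 3 (adjusted p up to 0.0808). MAN1B1, the ER mannosidase, stood at 0.043 (adjusted p = 0.531). MGAT1, which starts the antennae, stood at 0.25 (adjusted p = 0.0621) on its brightest probe set, while the other fell by 0.26 when all probe sets were tested (limma adjusted p = 0.0316).

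Over the 100 probe sets of the members, each tested among all 49293, 37 fell, 11 rose and 52 did not pass. Of all probe sets 13.2% fell, 14.8% rose and 28.0% passed in either direction. Of the 22 members that passed, 15 have 2 or more probe sets, and in 2 of these, RPN1 and GANAB, every probe set passed in the same direction. In none of the 15 did a probe set pass in the opposite direction. MGAT1 is not among them, since its brightest probe set, at 0.25, did not pass, while its other passed as lower. The share of such agreement over all genes was not computed. The other probe sets of a gene were often dimmer, and no detection calls were used. Only DPM1, STT3B, RPN2, DDOST, DAD1 and OSTC had a group mean above all 23 background probe sets, which averaged 2.53 to 773. This bar is the highest of a wide range, and a value below it does not show that a member went undetected. A fold of a dimmer gene can be understated.

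**Figure D3:**
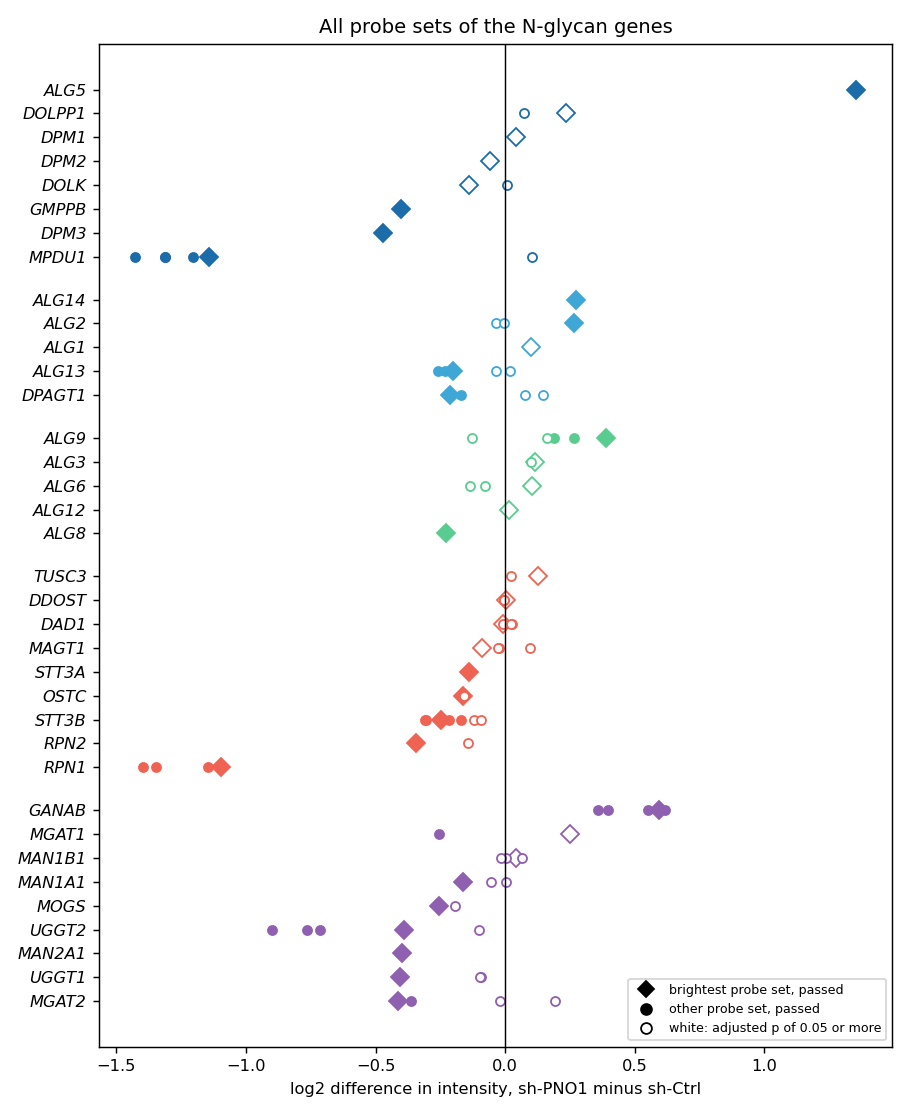
Log2 difference, sh-PNO1 minus sh-Ctrl, of all 100 probe sets of the members; diamonds are the brightest probe set of each gene, and filled symbols passed a limma adjusted p under 0.05 over all 49293 probe sets. RPN1 (4 probe sets) and GANAB (5) passed throughout in 1 direction, while MGAT1 has probe sets on both sides of 0.

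Other genes of the pathway were taken from fixed lists. Of 11 measured genes that feed or extend the precursor, 4 rose (36.4%) and 3 fell (27.3%), with a median log2 difference of 0.085. Over all genes 20.0% rose and 14.2% fell. GNPNAT1 (0.37 ± 0.04 SE, 3 of 3 probe sets) and GFPT1 (0.33 ± 0.05 SE), enzymes of the route to UDP-N-acetylglucosamine, rose. GFPT1 had 3 of 5 probe sets higher and 2 lower. NUS1, a subunit of the enzyme that makes the dolichol chain, fell by 0.22 (2 of 3 probe sets lower). ALG10B, a near-identical copy of ALG10, which adds the last glucose, changed by −1.17 ± 0.12 SE on its only probe set under that symbol, with 9.11 ± 1.45 in sh-PNO1 and 20.3 ± 1.52 in sh-Ctrl (SD, n = 3 each). Its signal may be shared with ALG10. Of these 4 genes NUS1 had the highest limma adjusted p, 0.00788.

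Around the oligosaccharyltransferase 6 of 10 measured genes fell (60%, against 14.2% of all genes) and 1 rose (10%, against 20.0%). The median was −0.14. SSR3, a subunit of the translocon-associated TRAP complex, averaged 418 ± 7.34 in sh-PNO1 and 709 ± 7.46 in sh-Ctrl (SD, n = 3 each; log2 −0.76 ± 0.04 SE, limma adjusted p = 6.95e-06), and all 4 of its probe sets fell. SSR1, another TRAP subunit, changed by −0.28 with 6 of 8 probe sets lower and 1 higher, and the channel subunit SEC61B by −0.22. KRTCAP2, which with OSTC marks the STT3A form, rose by 0.21 (limma adjusted p = 0.00563) on 1 of 2 probe sets and did not pass without _x_at and _s_at probe sets (0.088, adjusted p = 0.201). SSR1 stood at 0.33 (adjusted p = 0.00279) without them.

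In the calnexin cycle and glycan-dependent degradation 8 of 14 genes fell (57.1%, against 14.2% of all genes) and 3 rose (21.4%, near the 20.0% of all genes). The median was −0.22. The lectin chaperones CALR (−0.55 ± 0.06 SE, 1 of 2 probe sets lower) and CANX (−0.32 ± 0.04 SE, 9 of 9) fell. Their partner oxidoreductase PDIA3 (−0.48 ± 0.04 SE, 2 of 2) and the cargo lectin LMAN1 (−0.49 ± 0.04 SE, 4 of 6) fell as well. In limma the highest adjusted p of these genes was 0.000482. Of 14 other Golgi enzymes 5 fell (35.7%, against 14.2% of all genes) and 1 rose (7.14%, against 20.0%), with a median of −0.049. The sialyltransferases ST3GAL6 (−0.81 ± 0.07 SE, dim at 7.88 in sh-PNO1 and 13.8 in sh-Ctrl) and ST6GAL1 (−0.44 ± 0.04 SE, 1 of 3 probe sets lower) and the core fucosyltransferase FUT8 (−0.53 ± 0.09 SE, 2 of 2) fell, and GNPTG, a subunit of the enzyme that tags lysosomal proteins, rose (0.32 ± 0.06 SE, 3 of 3). ST6GAL1 did not pass without _x_at and _s_at probe sets (−0.12, limma adjusted p = 0.405).

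Dolichol-phosphate-mannose also serves GPI anchors and O- and C-mannosylation. Of 12 such genes 4 fell (33.3%, against 14.2% of all genes) and 3 rose (25%, near the 20.0% of all genes), with a median of −0.033. TMTC3, an O-mannosyltransferase, rose by 0.78 ± 0.05 SE (4 of 4 probe sets, limma adjusted p = 1.87e-05) and POMT1, another, by 0.29 (1 of 8 probe sets). The C-mannosyltransferase DPY19L1 fell by 0.32 (1 of 3 probe sets) and PIGV of the GPI pathway by 0.22 (1 of 1). Without _x_at and _s_at probe sets POMT1 (limma adjusted p = 0.0850) and DPY19L1 (limma adjusted p = 0.0506) did not pass. Among 20 genes of ER chaperones and the unfolded protein response 13 fell (65%, against 14.2% of all genes), with a median of −0.38. Only 1, the stress factor gene DDIT3, rose (0.84 ± 0.08 SE), which is 5% of the list, against 20.0% of all genes. HYOU1 (−0.77, 5 of 9 probe sets lower), MANF (−0.69, 1 of 1), DNAJC3 (−0.83, 3 of 3) and SDF2L1 (−0.82, 1 of 1), helpers of ER folding, had the smallest adjusted p-values. The transcription factor genes XBP1 (−0.51 ± 0.04 SE, limma adjusted p = 5.92e-05) and ATF6 (−0.42 ± 0.06 SE, limma adjusted p = 0.00092), like DDIT3 named after their values were seen, fell as well. Other regulators in this list did not pass in limma. These were ATF4 (0.018, adjusted p = 0.752), ERN1 (0.090, adjusted p = 0.198) and EIF2AK3 (−0.066, adjusted p = 0.254).

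**Figure D4:**
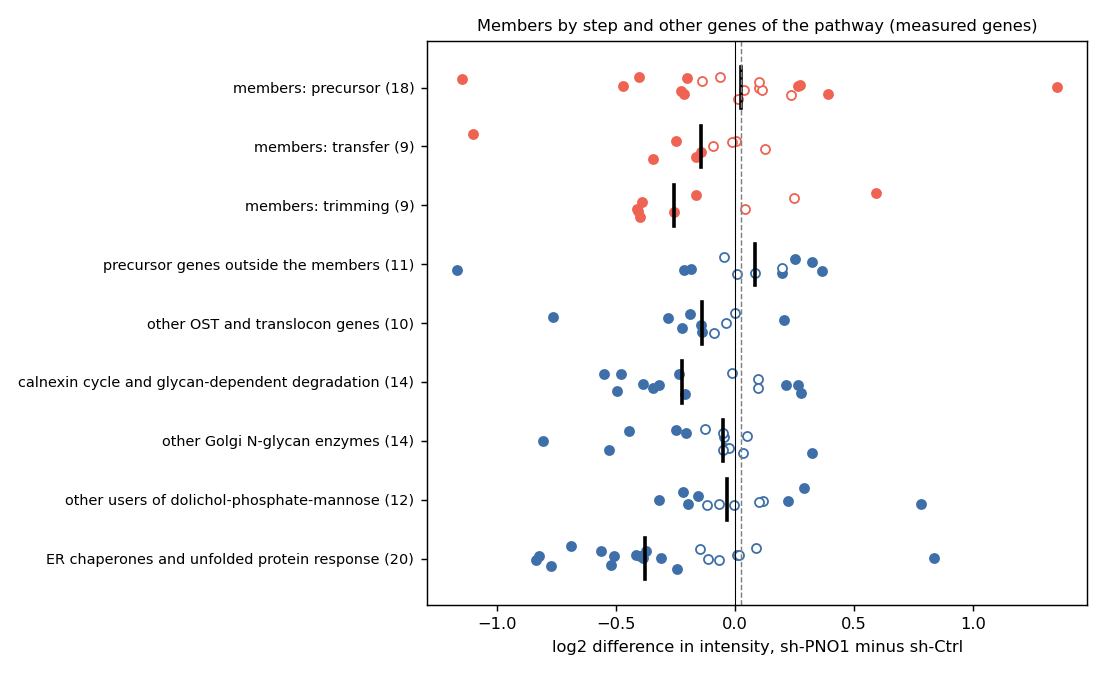
Log2 difference, sh-PNO1 minus sh-Ctrl, of the measured members by step (orange) and of the other lists (blue), with the number of genes in brackets; filled points passed a limma adjusted p under 0.05, thick bars are medians and the dashed line is the median of all genes (0.025). The medians run from 0.085 for precursor genes outside the members to −0.38 for ER chaperones, with the members' steps at 0.027, −0.14 and −0.26.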

How the data were processed

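Per the labels' protocols total RNA was labelled as biotinylated cRNA and hybridised to Affymetrix arrays. The authors deposited linear intensities made with RMA, per the submitters' processing notes, which name no version. RMA combines the probes of a set and makes arrays comparable; since its output is normally logarithmic and these values were not, log2 was applied here. The genome build and the background step were not given in the sources used here. Differences are relative to the other genes of an array, and the 6 arrays limit the precision.

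The platform table gave 1 gene symbol to 44988 of 49395 probe sets and several to 1832; 102 are controls and 2473 have no entry. Symbols were checked by gene identifier against RefSeq (GRCh38.p14; 44961 found, 0 changed). A gene was represented by its 1-symbol probe set with the highest mean. limma (version 3.58.1, R version 4.3.3) was fitted to all 18132 genes, sh-PNO1 minus sh-Ctrl, without covariates, and again to all 49293 probe sets. Benjamini-Hochberg adjustment was used with a threshold of 0.05. The step was tested on simulated data with 200 changed genes. It recovered 78% of those changed by 0.5 on the log2 scale and 99.5% of those changed by 1. Of the genes called, 2.5% and 6.57% were false. Smaller changes, as most members had, were not simulated. Counts and medians of lists are descriptions, with no test of a list or of a difference between steps. The members and lists were chosen with earlier results of these data known. Every member is named. Values on each array are given for members that passed with a change of 0.5 or more. They are also given for the 2 smallest adjusted p-values in each of 5 subgroups. In each other list up to 4 genes are named by smallest adjusted p. In the list of ER chaperones and the unfolded protein response DDIT3, XBP1, ATF6, ATF4, ERN1 and EIF2AK3 were added with their values known. Promoter windows are RefSeq's (GRCh38.p14).

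Both groups carry replicate numbers 1 to 3. Deviations of same-numbered arrays from their group means correlated at −0.04, 0.10 and −0.03, so the numbers were not taken to pair samples. Alternatives were a replicate block, a variance trend with robust prior, array weights, repeated quantile normalisation, equal medians, equal housekeeping means, averaged probe sets, the most variable probe set, leaving out the dimmest 30% of genes, no _x_at or _s_at probe sets, a threshold of 0.01, log2 of the intensity plus 16, and each array left out.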

Additional observations from a re-analysis of the deposited data

How the results depend on the processing

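Of the 22 members that passed, 12 passed in the same direction under all alternatives run for them. Among these 12, GMPPB, DPM3, ALG5 and ALG14 have 1 probe set each, so a change of probe set could not alter their values. With each array left out in turn 19 of the 22 passed, and the exceptions were STT3A, OSTC and MAN1A1. The number of members lower ranged from 14 to 16 and of those higher from 5 to 7 with 1 array left out. Over all genes 2167 to 2314 were then lower and 2952 to 3238 higher. DPAGT1 stood at 0.15 (adjusted p = 0.214) and ALG2 at −0.034 (adjusted p = 0.737) without _x_at and _s_at probe sets, and SSR1 at 0.33 (adjusted p = 0.00279). GFPT1 stood at −0.10 (adjusted p = 0.0671) with probe sets averaged and at −0.81 (adjusted p = 4.49e-05) with the most variable probe set, so its direction depends on the probe set. Without _x_at and _s_at probe sets the calls of STT3B, MOGS, UGGT1, NUS1 (adjusted p = 0.0808), KRTCAP2, ST6GAL1, POMT1 and DPY19L1 were lost as well, and PDIA3 stood at −1.16. With equal housekeeping means STT3A (adjusted p = 0.113), OSTC (0.0676) and MAN1A1 (0.106) did not pass. With probe sets averaged DPAGT1 (−0.040), ALG2 (0.076) and MAN1A1 (−0.092) did not pass, and MGAT2 stood at −0.15 and ALG9 at 0.18. The transfer genes that fell were 3 with the replicate block, equal housekeeping means, no _x_at or _s_at probe sets, or a threshold of 0.01, and 3 to 5 with 1 array left out. The trimming genes that rose were 2 with the replicate block, the variance trend, equal housekeeping means or the dimmest 30% left out, and 1 to 2 with 1 array left out. With the replicate block 14 members fell and 6 rose (2447 and 3401 of all genes). Of the 6 arrays, 2 correlated best with their own number. At a threshold of 0.01, 12 members fell and 5 rose (1823 and 2364 of all genes). Without _x_at and _s_at probe sets 12 members fell and 4 rose (2186 and 2936 of all genes kept). The median of the members was −0.15 with equal medians, −0.077 with housekeeping means, −0.050 with probe sets averaged, −0.047 without _x_at and _s_at probe sets, and −0.14 with the most variable probe set. The precursor median was −0.012 with equal medians or probe sets averaged, −0.023 with the most variable probe set, and between −0.0038 (without sh-PNO1 replicate 2) and 0.069 with 1 array left out. The transfer median was −0.18 with equal medians, −0.10 with housekeeping means and −0.058 without _x_at and _s_at probe sets. The trimming median was −0.15 with probe sets averaged and −0.17 with 16 added to the intensity. The causes of these shifts were not tested. Dim probe sets, such as those of TUSC3, MAN2A1 and ALG10B, limit what can be said of these genes.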
